A study of Homo sapiens with 4 samples.

Results

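The genes described here are 44 human genes of fatty acid and triglyceride synthesis, lipid droplets and lipolysis. They were picked by name for their known roles in these pathways, not by a threshold on their values, and are 44 of the 46427 genes in the tables. Their levels were measured by RNA sequencing in Huh7 and HepG2, established human liver tumour cell lines that the labels give as hepatocellular carcinoma with a wild-type genotype. Cells of each line were transfected for 5 h with 20 nM siRNA, either a negative control (NC-siRNA) or one that targets COP1 (COP1-siRNA), and harvested at 48 h. COP1 is an E3 ubiquitin ligase, and the study asked whether its loss alters lipid metabolism in liver cancer cells. There were 4 libraries, 1 per line and siRNA, and the labels give all of them the same batch. No difference between siRNAs within a line therefore has a replicate check, and in bulk RNA a smaller share of cells and less RNA per cell cannot be told apart.

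Liver cells build fatty acids from acetyl-CoA. Fatty acid synthase joins the carbons, desaturases and elongases modify the chain, and acyl-CoA synthetases activate it for esterification onto glycerol. The triglyceride formed is stored in lipid droplets, whose surface carries perilipins and CIDE proteins, and lipases release it again. The transcription factors SREBP1 and ChREBP switch on many of these enzymes in response to insulin and glucose.

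The values are TPM (transcripts scaled for gene length, summing to 1000000 in each library), so levels of different genes can be set side by side. A change is the log2 ratio of COP1-siRNA to NC-siRNA after 1 was added to each TPM, a scale that understates changes of genes near 1 TPM. Genes that reached 1 TPM in at least 1 library of a line were tested there. This gave 13000 genes and 36 members in Huh7, and 14456 genes and 39 members in HepG2. A gene is said to have risen or fallen only past 2-fold, the threshold of the study. COP1 itself went from 19.7 TPM in the control to 6.18 TPM in the knockdown library of Huh7, and from 26.9 to 16.1 TPM in HepG2, so the knockdown was the weaker in HepG2. The ratio of coverage to FPKM, which follows sequencing depth, lay between 5.34 and 6.94, and was 1.14 times as high with COP1-siRNA as with NC-siRNA in Huh7 and 1.28 times in HepG2. Read counts are not in the tables, so the precision of a single value is unknown.

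Most of the members were expressed at a moderate or high level, and the levels differed far more between the lines than between the siRNAs. The summed TPM of the 44 genes was 4434 in Huh7 with NC-siRNA and 4046 with COP1-siRNA, against 1545 and 1608 in HepG2. The Huh7 sums were thus higher than the HepG2 sums with either siRNA. SCD, the desaturase that puts the first double bond into saturated acyl chains, was the highest member in all 4 libraries, from 295.8 TPM in HepG2 with NC-siRNA to 758 TPM in Huh7 with NC-siRNA. THRSP (a lipogenic cofactor), PLIN4 and PLIN5 (perilipins) and HSD17B13 (a lipid droplet enzyme of hepatocytes) stayed under 1 TPM in all 4 libraries, with THRSP listed at 0 in each.

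**Figure D1:**
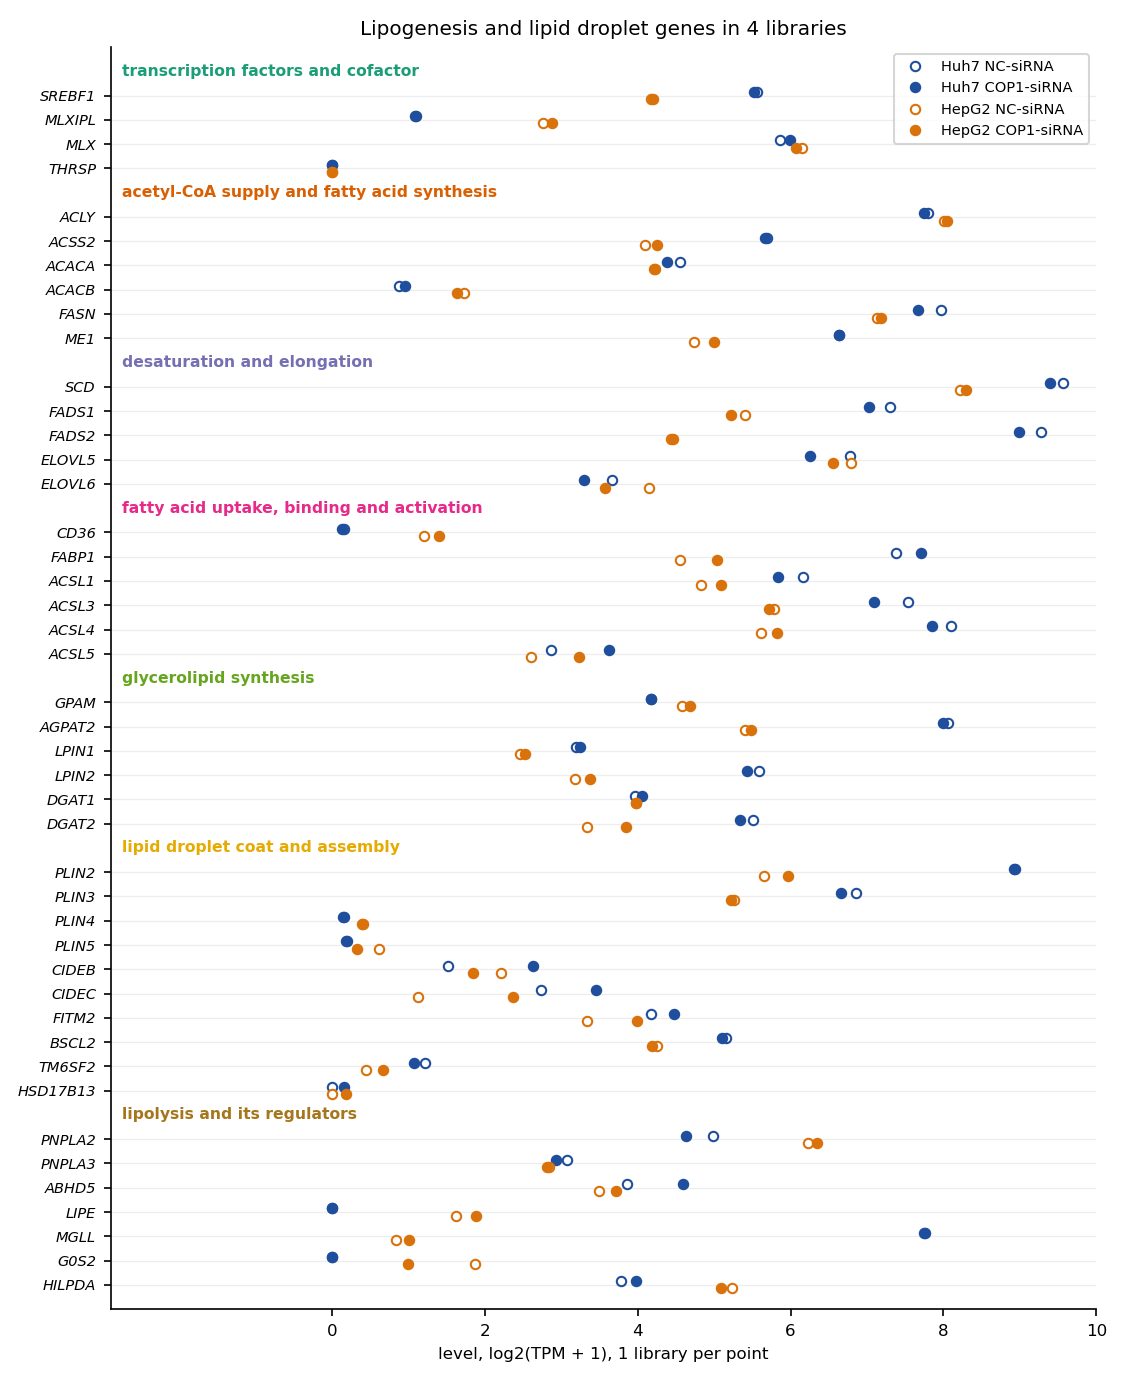
Level of each of the 44 genes as log2(TPM + 1), 1 point per library, with genes grouped by role; open points are NC-siRNA and filled points COP1-siRNA. The blue Huh7 points lie far to the right of the orange HepG2 points for FADS2, PLIN2 and MGLL, whereas open and filled points of one line lie close together for most genes.

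With COP1-siRNA, 1 member rose past 2-fold in Huh7 and 1 in HepG2, and 0 fell in either line. The gene that rose in Huh7 was CIDEB and the gene that rose in HepG2 was CIDEC, both members of the CIDE family of lipid droplet proteins. Among all tested genes, 0.638% rose and 0.446% fell past 2-fold in Huh7, and 0.54% rose and 0.394% fell in HepG2, and a count of 1 at this list size is no result about the members as a group. At 1.5-fold, 4 members were higher and 0 lower in Huh7, where the background was 2.8% higher and 2.68% lower. In HepG2 3 were higher and 1 lower at 1.5-fold, against 2.56% and 1.87% of all tested genes. CIDEC and ACSL5 were at least 1.5-fold higher in both lines, 2 of the 35 members tested in both (5.71%) beside 42 of 11970 genes (0.351%). For ACSL5 this was lost by depth-scaled coverage in both lines (0.51 and 0.40) and by FPKM in HepG2 (0.52).

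The remaining members differed little between the siRNAs. In Huh7 25 of 36 members and in HepG2 30 of 39 lay within 0.3 of 0 on the log2 scale, beside 10079 of 13000 and 11701 of 14456 genes. The median change of the members was −0.056 in Huh7 and 0.076 in HepG2, beside −0.00083 and −0.0080 over all tested genes. In Huh7 24 of 36 members were lower with COP1-siRNA, beside 6519 of 13000 tested genes. In HepG2 26 of 39 members were higher, beside 6988 of 14456 tested genes. The Huh7 count of members rests on the unit. By FPKM 17 of 36 were lower and the median of the members was 0.0027, while that of all tested genes moved to 0.047. Of the 35 members tested in both lines, 15 (42.9%) were lower in Huh7 and higher in HepG2, beside 19.8% of all genes tested in both, 9 were higher in both and 8 lower in both.

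Hepatocyte markers were likewise lower in Huh7 and higher in HepG2. Of 8 hepatocyte markers, 7 were lower with COP1-siRNA in Huh7 and 8 were higher in HepG2, with median changes of −0.11 and 0.39. Over all tested genes 6519 of 13000 were lower in Huh7 and 6988 of 14456 higher in HepG2. By FPKM 6 of the 8 markers were lower in Huh7, with a median of −0.052. In HepG2 8 were then higher, with a median of 0.34. APOB, the structural protein of very low density lipoprotein, was at −0.12 (Huh7) and 0.57 (HepG2) on this log2 scale, and albumin (ALB) at −0.28 and 0.083. The summed TPM of the 8 markers was 17849 and 15778 in Huh7 with NC-siRNA and COP1-siRNA, and 2665 and 3067 in HepG2. Their part in the members' changes was not tested. The adipocyte markers ADIPOQ, LEP and FABP4 were listed at 0 in all 4 libraries and PLIN1 reached at most 0.373 TPM.

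An additive limma fit of cell line and siRNA over all 4 libraries, with the lines as pairs and 1 residual degree of freedom per gene, was added after the values had been seen. Of 15486 genes it called 0 (0%) for the siRNA at an adjusted p under 0.05, with a lowest adjusted p of 0.0775, and 1670 (10.8%) at an unadjusted p under 0.05. Of the 40 members in the fit, 0 passed after adjustment and 8 did unadjusted, 5 higher and 3 lower. The lowest adjusted p of the members in this limma fit was 0.184, shared by ACSL5 with a log2 change of 0.69 ± 0.12 (SE) and CIDEC with 0.98 ± 0.17 (SE). The other 6 were FABP1, FITM2 and ABHD5, which were higher, and ELOVL6, ELOVL5 and FADS1, which were lower.

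**Figure D2:**
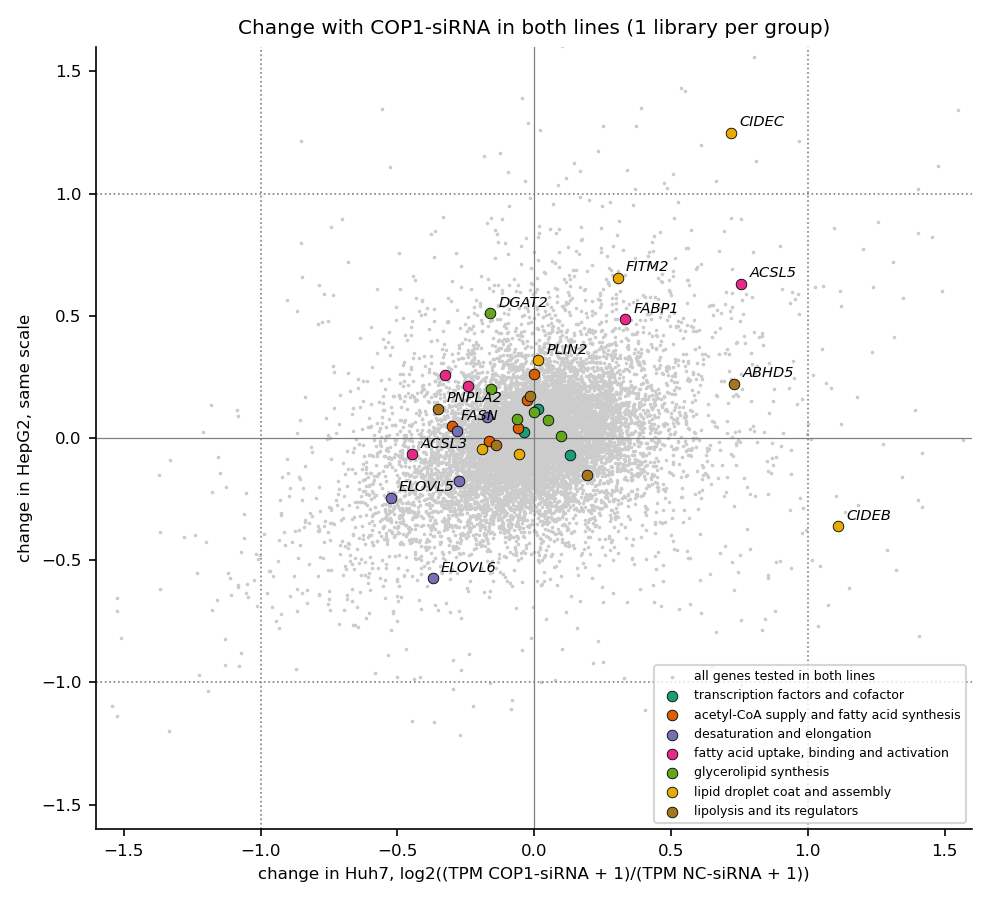
Change with COP1-siRNA in Huh7 (x axis) and HepG2 (y axis), both as the log2 ratio of TPM + 1 against NC-siRNA; grey points are the genes tested in both lines within the plotted range, coloured points are members by role, and dotted lines mark 2-fold. CIDEC and ACSL5 stand at the upper right, CIDEB is past 2-fold in Huh7 and below 0 in HepG2, and ELOVL5 and ELOVL6 stand at the lower left.

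Among the lipid droplet proteins, CIDEC and CIDEB differed most between the siRNAs. CIDEC (gene 63924, GRCh38 chr3:9866710-9880254, minus strand), which promotes fusion of lipid droplets, was at 5.62 TPM in the control and 9.91 TPM in the knockdown library of Huh7, and at 1.17 and 4.16 TPM in HepG2. It was higher with COP1-siRNA in both lines, with log2 changes of 0.72 (Huh7) and 1.25 (HepG2). These changes lay at percentiles 99.2 and 99.8 among the 500 tested genes nearest to it in mean level. Its level rested on a coverage of 12.8 and 26.8 reads per base in Huh7, and 2.47 and 11.04 in HepG2. Of the CIDEC values the HepG2 control was thus the least supported. By FPKM the HepG2 change was 0.88 and no longer past 2-fold.

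CIDEB (gene 27141, GRCh38 chr14:24305096-24311435, minus strand), which acts in lipid droplet and lipoprotein maturation in hepatocytes, was at 1.85 and 5.16 TPM in Huh7 with NC-siRNA and COP1-siRNA, and at 3.62 and 2.59 TPM in HepG2. It was higher with COP1-siRNA in Huh7 and lower in HepG2, with log2 changes of 1.11 and −0.36, and was not past 2-fold in Huh7 by FPKM (0.86) or by depth-scaled coverage (0.95). CIDEB coverage was 2.46 and 8.03 reads per base in Huh7, and 4.55 and 4.16 in HepG2. Of the CIDEB values the Huh7 control was thus the least supported. NOP9, a gene on the opposite strand, shares 4029 bases with CIDEB and was at 26.5 and 18.5 TPM in Huh7 and 23.1 and 27.1 TPM in HepG2. NOP9 thus moved against CIDEB in each line, and its part in the CIDEB values was not tested.

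FITM2, which helps partition triglyceride into budding droplets, was at 17.0 and 21.2 TPM in Huh7 with NC-siRNA and COP1-siRNA, and at 9.08 and 14.9 TPM in HepG2. It was higher with COP1-siRNA in both lines, and past 1.5-fold in HepG2 alone, with log2 changes of 0.30 and 0.66. PLIN2, the perilipin known as ADRP and used as a droplet marker by the study, was at 485.9 and 490.3 TPM in Huh7, and at 49.1 and 61.5 TPM in HepG2. Its log2 change was 0.013 in Huh7 and 0.32 in HepG2, at percentiles 57.4 and 96.4 among genes of like level, and the Huh7 change lay between −0.0020 and 0.073 under the alternatives. PLIN2 RNA thus differed little in Huh7 and was higher with COP1-siRNA in HepG2. PLIN3, a perilipin found in most tissues, had changes of −0.19 and −0.043, and BSCL2, which encodes the droplet assembly protein seipin, had −0.054 and −0.067. BSCL2 shares 19358 bases on its own strand with the read-through gene HNRNPUL2-BSCL2, which was at 1.39 and 5.08 TPM in Huh7 and 8.82 and 7.79 TPM in HepG2, so the division of reads between these genes is uncertain. TM6SF2, which acts in lipid loading of lipoproteins, was tested in Huh7 alone, at 1.33 and 1.10 TPM.

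The sequence just before the annotated start of CIDEC is shown because this was the member highest above its control in HepG2 and high in both lines. It is RefSeq sequence of GRCh38.p14, chr3:9880254-9880503, minus strand, written 5′ to 3′ up to the base before the start, with the match to the C/EBP motif TTGCNNAA in capitals.
CIDEC: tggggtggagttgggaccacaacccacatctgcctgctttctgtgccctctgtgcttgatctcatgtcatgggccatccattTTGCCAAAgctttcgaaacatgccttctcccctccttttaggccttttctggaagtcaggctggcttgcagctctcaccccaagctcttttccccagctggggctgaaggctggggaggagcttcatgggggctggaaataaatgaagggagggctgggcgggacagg
Of the 38 members with a RefSeq promoter window of 300 bases, 3 (7.89%) held this motif on either strand, namely CIDEC, FADS1 and FABP1, beside 7.01% of the tested genes and 10.6% of all promoters. The share of members was thus close to that of other genes. The E-box CACGTG was found in 4 members (10.5%), beside 10.2% of tested genes and 7.43% of all promoters, and the SREBP site TCACNCCAC in 1 (2.63%), PNPLA2, beside 1.06% of tested genes and 1.15% of all promoters. The AP-1 motif TGANTCA was found in ELOVL5 and ME1, 5.26% of members beside 4.52% of tested genes and 7.76% of all promoters. The ETS motif CCGGAAGT was found in BSCL2, 2.63% of members beside 8.51% of tested genes and 4.44% of all promoters. The DR1 motif, a direct repeat bound by PPAR and HNF4A receptors, was found in 0 of the 38 windows, in 0.026% of tested genes and in 0.022% of all promoters.

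Among genes of fatty acid uptake, binding and activation, ACSL5 and FABP1 were higher with COP1-siRNA in both lines. ACSL5 (gene 51703, GRCh38 chr10:112374116-112428380, plus strand), an acyl-CoA synthetase of mitochondria and endoplasmic reticulum, was at 6.27 and 11.3 TPM in Huh7 with NC-siRNA and COP1-siRNA, and at 5.07 and 8.41 TPM in HepG2. In each line its level was higher with COP1-siRNA. Its log2 changes of 0.76 and 0.63 lay at percentiles 99.0 and 98.8 among genes of like level. By depth-scaled coverage they were 0.51 and 0.40, the lowest of all alternatives. ACSL5 coverage was 2.41 and 5.13 reads per base in Huh7, and 1.82 and 3.81 in HepG2. This was lower than that of CIDEC in each library, although the TPM of ACSL5 was higher in each. Coverage thus does not show which of these genes was better supported. ZDHHC6, on the opposite strand, shares 3970 bases with ACSL5 and was at 42.3 and 49.2 TPM in Huh7 and 62.5 and 59.1 TPM in HepG2, and its part in the ACSL5 values was not tested.

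FABP1, the main fatty acid binding protein of hepatocytes, was at 165 and 208 TPM in Huh7, and at 22.4 and 31.8 TPM in HepG2. It was higher with COP1-siRNA in each line, by 0.33 and 0.49 on the log2 scale, at percentiles 97.6 and 98.2 among genes of like level. The other acyl-CoA synthetases did not share the direction of ACSL5 in Huh7. ACSL3, which loads nascent droplets, was at 185 and 135 TPM in Huh7 and 54.2 and 51.7 TPM in HepG2, lower with COP1-siRNA in both lines. ACSL1 had log2 changes of −0.33 (Huh7) and 0.26 (HepG2). ACSL4, which favours polyunsaturated chains, had changes of −0.24 and 0.21. CD36, a fatty acid transporter, was under 1 TPM in Huh7 and at 1.30 and 1.65 TPM in HepG2.

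All 5 desaturases and elongases were lower with COP1-siRNA in Huh7, with a median log2 change of −0.28, beside 6519 of 13000 tested genes that were lower. All 5 were lower in Huh7 under each of the 7 processing alternatives, with medians from −0.29 to −0.22. These alternatives use the same libraries and are no replicates, and the minimum-TPM settings left all 5 values as they were. The change of ELOVL5 in Huh7 lay between −0.53 and −0.46 and that of ELOVL6 between −0.40 and −0.28. ELOVL5, which lengthens polyunsaturated chains, was at 109 and 75.2 TPM in Huh7 with NC-siRNA and COP1-siRNA, and at 110.1 and 92.8 TPM in HepG2. In each line ELOVL5 was lower with COP1-siRNA, with log2 changes of −0.52 and −0.24 at percentiles 2.4 and 7.2 among genes of like level. ELOVL6, which extends palmitate to stearate, was at 11.6 and 8.78 TPM in Huh7, and at 16.6 and 10.9 TPM in HepG2. It too was lower with COP1-siRNA in each line, with log2 changes of −0.37 and −0.57 at percentiles 9.8 and 0.6. On this scale neither elongase passed 1.5-fold, but ELOVL6 in HepG2 did with a pseudocount of 0.1 (−0.61) and by depth-scaled coverage (−0.59).

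The 3 desaturases were lower in Huh7 and mixed in HepG2. SCD was at 758 and 674 TPM in Huh7, and at 295.8 and 314 TPM in HepG2. FADS1 and FADS2, which desaturate polyunsaturated chains and lie side by side on chromosome 11, had log2 changes of −0.27 and −0.28 in Huh7 and of −0.18 and 0.029 in HepG2. The tables give FADS1 and FADS2 opposite strands with 801 shared bases, so their reads can be told apart only as far as the counting used strand.

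ELOVL5 and ELOVL6 were also the tested members that hold the 7-base word AGCAGTC in the annotated 3′ UTR. The word was taken from an earlier look at these libraries, in which genes with it were lower as a group, so the match is a description and no separate support. The sites are shown with 11 bases before and 12 after, from GENCODE 29 transcripts on GRCh38, both genes on the minus strand and the word in capitals. The word of ELOVL5 lies at chr6:53268407-53268413 and that of ELOVL6 at chr4:110049261-110049267.
ELOVL5: gggggctctacAGCAGTCgtgatgaaactt
ELOVL6: aaatgattgtgAGCAGTCtataatgtcttg
Outside the word the sites differ. The word starts at base 714 of the 1728-base 3′ UTR of ELOVL5 and at base 2071 of the 5492-base 3′ UTR of ELOVL6. These were 2 of 36 tested members in Huh7 (5.56%) and 2 of 39 in HepG2 (5.13%), beside 9.31% and 9.41% of all tested genes with a 3′ UTR, so the word was no more frequent among the members than elsewhere. Over all tested genes the median log2 change was −0.13 with the word and 0.0024 without it in Huh7, and −0.086 and −0.0031 in HepG2. HSD17B13, which also holds it, was under 1 TPM.

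**Figure D3:**
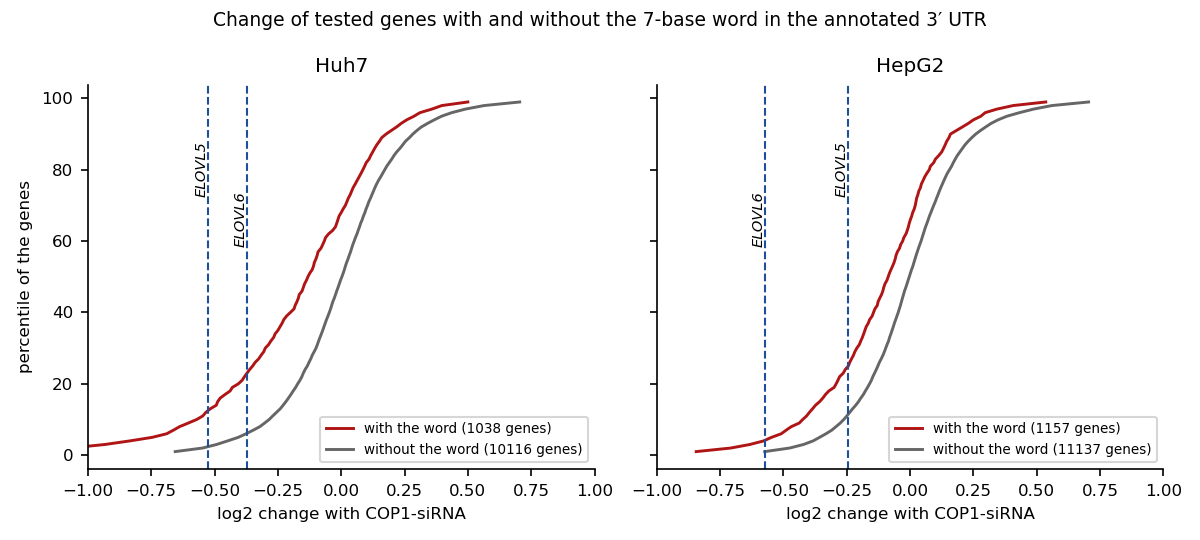
Percentiles of the log2 change with COP1-siRNA over tested genes with (red) and without (grey) the 7-base word in the annotated 3′ UTR, Huh7 left and HepG2 right; dashed lines mark ELOVL5 and ELOVL6. The red curve lies left of the grey one in both lines, with medians of −0.13 and 0.0024 in Huh7, and both elongases lie left of both medians.

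The words that pair with the seeds of the COP1-siRNA itself were in other members. CCAAGTT, which pairs with the antisense strand, was in 5 tested members in Huh7, with changes of 0.13 for MLX, −0.0023 for GPAM, −0.16 for LPIN2, −0.026 for ACSS2 and 0.73 for ABHD5. Their median was −0.0023, beside −0.062 for members without it. In HepG2, where ACACB was also tested, the median of the 6 was 0.13, beside 0.075 without it. The word was in 13.9% (Huh7) and 15.4% (HepG2) of tested members, beside 11.1% and 11.2% of all tested genes with a 3′ UTR. Over all these genes the medians with and without it were −0.018 and −0.0058 in Huh7, and −0.00475 and −0.0103 in HepG2. AGCATTC, which pairs with the sense strand, was in SCD, GPAM, LPIN1 and ACSL3, whose median was −0.087 in Huh7 and 0.081 in HepG2, beside −0.056 and 0.076 for members without it. These were 11.1% (Huh7) and 10.3% (HepG2) of tested members, beside 10.3% and 10.2% of all tested genes with a 3′ UTR. With so few members, the medians for both words are a description only.

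The transcription factors and the enzymes of fatty acid synthesis had 0 members past 1.5-fold in either line. Among all tested genes 2.8% were higher and 2.68% lower past it in Huh7, and 2.56% and 1.87% in HepG2. With so few genes, 0 is thus no result about these roles. SREBF1, which encodes SREBP1, was at 46.3 and 45.0 TPM in Huh7 with NC-siRNA and COP1-siRNA, and at 17.0 and 17.4 TPM in HepG2. MLXIPL, which encodes ChREBP, was at 1.12 and 1.14 TPM in Huh7, and at 5.79 and 6.38 TPM in HepG2. The control and knockdown libraries thus differed by at most 0.12 on the log2 scale for these genes, and the sign for SREBF1 and MLXIPL in Huh7 depended on the unit. The values sum all isoforms of a gene, so SREBP1c and ChREBPα could not be told apart from the other isoforms. By PCR the study reported ChREBPα after COP1 knockdown, but SREBP1c only with COP1 overexpression in another line, Huh1. MLX, the partner of ChREBP, had the highest level of this role in each line, with 57.2 and 62.8 TPM in Huh7 and 69.8 and 66.4 TPM in HepG2.

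FASN (gene 2194), the fatty acid synthase, was at 248 and 202 TPM in Huh7 with NC-siRNA and COP1-siRNA, and at 139 and 144 TPM in HepG2. It was lower with COP1-siRNA in Huh7, with a log2 change of −0.30 at percentile 7.6 among genes of like level, and 0.048 higher in HepG2 at percentile 63.6. ACLY, which splits citrate into acetyl-CoA, had the highest level of this role in HepG2, at 256 and 264 TPM, and was at 221 and 213 TPM in Huh7. ACACA, the acetyl-CoA carboxylase that commits acetyl-CoA to synthesis, had changes of −0.17 and −0.011, and ACSS2, which makes acetyl-CoA from acetate, −0.026 and 0.16. ME1, a source of NADPH for synthesis, was at 98.0 TPM in both Huh7 libraries and at 25.5 and 30.9 TPM in HepG2. All 5 tested members of this role were lower in Huh7 with COP1-siRNA, though ME1 only beyond the digits given, and by FPKM 3 of the 5 were higher. In HepG2 4 of 6 were higher. Over all tested genes 6519 of 13000 were lower in Huh7 and 6988 of 14456 higher in HepG2. SLC2A4, the gene of the glucose transporter GLUT4, is not a member and was at 0.371 and 0.309 TPM in Huh7 and 1.01 and 0.929 TPM in HepG2, too low for a change to be read.

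In HepG2 all 6 glycerolipid enzymes, which esterify acyl chains to triglyceride, were higher with COP1-siRNA, beside 6988 of 14456 tested genes. By FPKM 5 of 6 were higher. This role also had 0 members past 1.5-fold, which at the background shares given above is no result about so few genes. DGAT2, which makes triglyceride in the last step, came nearest, with 9.07 and 13.4 TPM in HepG2 and a log2 change of 0.51, whereas it was at 44.3 and 39.6 TPM in Huh7. AGPAT2, an acyltransferase earlier in the pathway, had the highest level of this role in both lines, with 265 and 254 TPM in Huh7 and 41.5 and 43.8 TPM in HepG2. LPIN2, a phosphatidate phosphatase, was at 47.0 and 42.0 TPM in Huh7 and at 8.06 and 9.41 TPM in HepG2. The changes of LPIN1, DGAT1 and GPAM lay between −0.0023 and 0.11 in the lines together.

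Among the lipases and their regulators, ABHD5 and G0S2 act on the same enzyme in opposite ways, ABHD5 (CGI-58) as activator and G0S2 as inhibitor of the triglyceride lipase PNPLA2 (ATGL). ABHD5 was at 13.5 and 23.0 TPM in Huh7 with NC-siRNA and COP1-siRNA, and at 10.2 and 12.1 TPM in HepG2. It was higher with COP1-siRNA in both lines, by 0.73 and 0.22 on the log2 scale at percentiles 99.8 and 83.4. G0S2 was listed at 0 in both Huh7 libraries and was at 2.64 and 0.995 TPM in HepG2, a log2 change of −0.87, or −1.32 with a pseudocount of 0.1, at a coverage of 6.58 and 3.11 reads per base. PNPLA2 itself was at 30.5 and 23.7 TPM in Huh7, and at 74.0 and 80.5 TPM in HepG2, with changes of −0.35 and 0.12. In Huh7 the lipase and its activator thus went opposite ways. ABHD5 shares 725 bases with ANO10 on the opposite strand, which had changes of −0.17 and −0.11.

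None of the other 4 members of this role passed 1.5-fold with COP1-siRNA in either line, which is no result about so few genes. HILPDA, an inhibitor of PNPLA2 induced by low oxygen, had changes of 0.19 and −0.15, and PNPLA3, a droplet lipase of hepatocytes, −0.14 and −0.028. LIPE, the hormone-sensitive lipase, was listed at 0 in Huh7 and was at 2.06 and 2.69 TPM in HepG2. MGLL, the monoglyceride lipase that takes the last acyl chain, was at 215 and 213 TPM in Huh7, and at 0.778 and 1.00 TPM in HepG2.

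**Figure D4:**
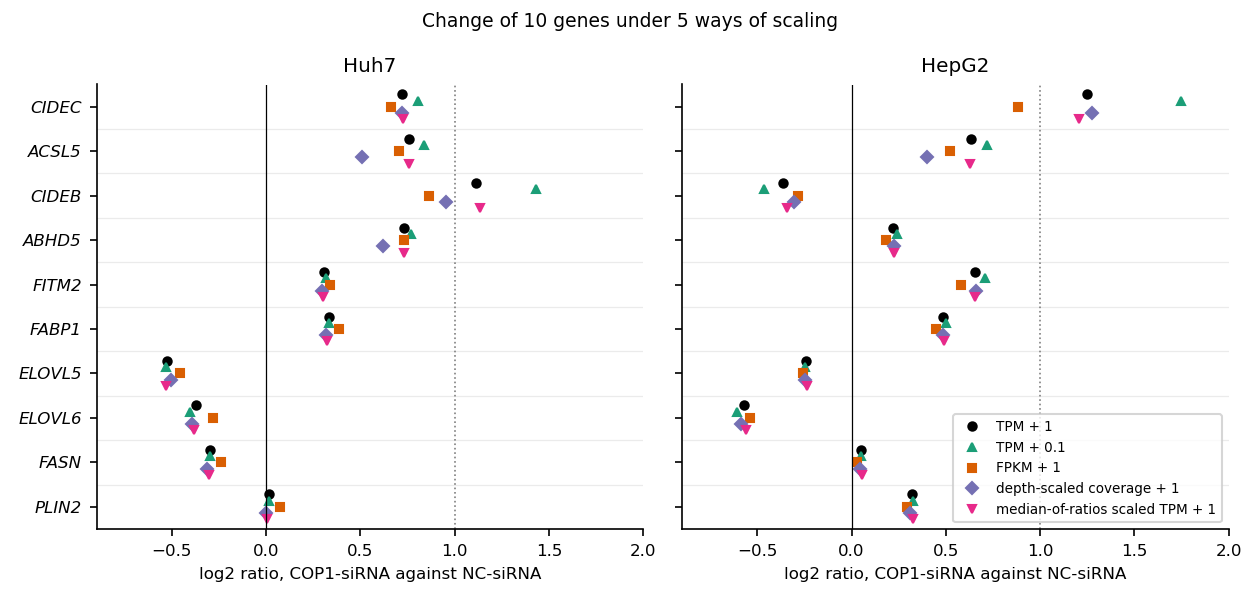
Log2 ratio of COP1-siRNA to NC-siRNA for 10 genes under 5 ways of scaling, Huh7 left and HepG2 right; symbols are the scaled values named in the key with the pseudocount added, and the dotted line marks 2-fold. CIDEC, ACSL5, FITM2 and FABP1 lie above 0 and ELOVL5 and ELOVL6 below 0 under all 5 in both lines, while CIDEC in HepG2 and CIDEB in Huh7 cross the dotted line.

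The members differed strongly between the lines. With NC-siRNA, 17 of 40 members had a level at least 2-fold above that of HepG2 in Huh7 and 6 a level at least 2-fold below it, beside 14.7% and 27.9% of 15055 genes. The median difference of the members was 0.81 on the log2 scale, beside −0.37 over all genes tested. Median-of-ratios scaling moved the median of all genes to −0.064 and that of the members to 1.09. It gave 21 members higher and 4 lower, beside 19.1% and 20.8% of all genes. This scaling applies 1 factor to each library and shifts members and other genes nearly alike. It is therefore no separate check of the members against other genes. With both siRNAs alike, 16 members lay 2-fold or more above HepG2 and 5 below, beside 12.2% and 22.4% of 15486 genes. Both Huh7 libraries lay above both HepG2 libraries for 25 of 40 members and below them for 10, beside 31% and 56.5% of all genes. The 5 members whose libraries overlapped between the lines were ACSL5, CIDEB, DGAT1, ELOVL5 and ELOVL6. With 1 library per line and siRNA, line and culture cannot be told apart.

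On the log2(TPM + 1) scale 8 members were past 4-fold with NC-siRNA, all of them higher in Huh7 and from 5 of the 7 roles. The share of all genes past 4-fold was not counted, so this is no result about the members as a group. The SD of the difference over genes was 1.79 for the members and 1.48 for all 15055 tested genes. The added 1 TPM shrinks differences of low genes: by the plain TPM ratio MLXIPL was 5.18-fold and CD36 11.7-fold lower in Huh7, CIDEC was 4.81-fold higher, and LIPE and G0S2 were listed at 0 there. MGLL stood farthest apart, at 215 TPM in Huh7 and 0.778 TPM in HepG2 with NC-siRNA, a log2 difference of 6.93. FADS2 was at 617 and 507 TPM in Huh7 with NC-siRNA and COP1-siRNA, and at 20.5 and 21.0 TPM in HepG2. PLIN2, FABP1, AGPAT2, LPIN2 and DGAT2 have been given above, and ACSL4 was at 272 and 230.0 TPM in Huh7 and at 47.9 and 55.7 TPM in HepG2. The 6 members at least 2-fold lower in Huh7 were MLXIPL, CD36, PNPLA2, LIPE, G0S2 and HILPDA, so that 4 of the 7 lipolysis genes were lower in Huh7 and MGLL was higher.

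**Figure D5:**
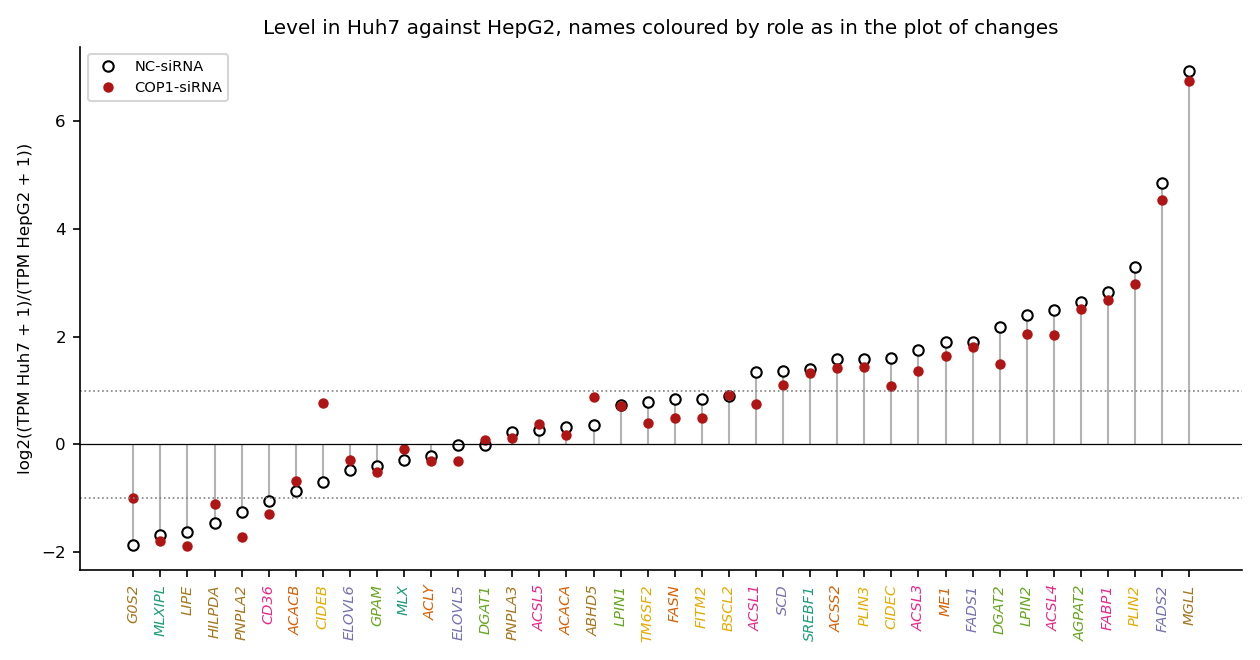
Log2 ratio of the level in Huh7 to that in HepG2 for the 40 tested members, with NC-siRNA (open) and COP1-siRNA (red), sorted by the NC-siRNA value; dotted lines mark 2-fold and names are coloured by role. MGLL and FADS2 stand highest with NC-siRNA, at 6.93 and 4.84, and the open and red points of a gene lie farthest apart for CIDEB and G0S2.

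Of 71 further genes of the same pathways, listed by role, 49 were tested in Huh7 and 63 in HepG2. In Huh7 1 rose and 0 fell past 2-fold, and in HepG2 0 rose and 0 fell. The gene that rose was ELOVL3, an elongase of very long chains, at 3.04 TPM in the control and 10.5 TPM in the knockdown library of Huh7, a log2 change of 1.505, and at 0 and 0.343 TPM in HepG2. It thus went against ELOVL5 and ELOVL6 in Huh7. At 1.5-fold, 3 of these genes were higher and 0 lower in HepG2, namely CES1, a carboxylesterase that hydrolyses triglyceride, with a change of 0.74, ACSS1 with 0.72 and GPD1 with 0.59. Among the 14 regulators 0 passed 1.5-fold in either line. At the background shares given above, such small counts are no result about these lists. SREBF2, the cholesterol-sensing relative of SREBF1, was at 94.1 and 74.8 TPM in Huh7 and at 46.0 and 46.5 TPM in HepG2. PPARG, a nuclear receptor that drives droplet genes in adipocytes, was at 83.4 and 96.7 TPM in Huh7 and at 15.5 and 15.2 TPM in HepG2. MTTP, which loads triglyceride onto APOB, had changes of −0.23 in Huh7 and 0.45 in HepG2, the same directions as APOB. The median change of the 71-gene list was −0.017 in Huh7 and −0.015 in HepG2, nearer to the median of all tested genes than that of the members.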

How the data were processed

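Each library was assigned to its line and siRNA from its own labels. Polyadenylated RNA was sequenced with a kit that keeps the strand. The submitters' processing notes name FastQC 0.11.7, Trimmomatic 0.38, HISAT2 2.1.0, StringTie 2.1.3b and GRCh38. In each deposited table the authors give TPM, FPKM and coverage, the last a signal not normalized for depth. The name column of the deposited tables holds no symbols, so genes were named by NCBI Gene number from RefSeq (96.3% of 46427 numbers matched, and all 44 members). There were 52 numbers on more than 1 line, none of a member, and these were summed. How reads of overlapping genes were divided is not given in the sources used here.

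Changes were log2((TPM + 1)/(TPM + 1)) for genes of at least 1 TPM in a library of the line. No p-value was computed within a line, with 1 library per group. The added limma 3.58.1 fit (R 4.3.3) used log2(TPM + 1) with a mean-variance trend. Its p-values rest on how far the siRNA change of a gene differed between the lines (1 residual degree of freedom). They also rest on variance borrowed from other genes (4.84 prior degrees of freedom), and not on replicates. On simulated data the fit called too many genes. Named were members past 1.5-fold in a line, past 4-fold between lines, under 1 TPM throughout or measured in the study, and the highest of each role. Other members named are examples of their role. Members and lists were chosen with earlier results of these data known. Fold calls were tested on simulated data. For 3′ UTRs, 1 transcript per gene was taken from GENCODE 29 (18683 genes), and promoter windows ran from 250 bases before to 50 after the RefSeq start. The other software was Python 3.11.15, pandas 2.3.3, numpy 2.4.6 and matplotlib 3.10.9. Alternatives were a pseudocount of 0.1, FPKM, depth-scaled coverage, median-of-ratios and upper-quartile scaling, no minimum, a minimum of 5 TPM and a 1.5-fold threshold.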

Additional observations from a re-analysis of the deposited data

Results flagged for a closer look

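CIDEB stood out because its change with COP1-siRNA had opposite signs in the lines, with log2 changes of 1.11 in Huh7 and −0.36 in HepG2. With 1 library per group, the difference between the lines was not tested.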

How the results depend on the processing

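The count of members past 2-fold with COP1-siRNA, 1 in each line, was small and depended on the processing. In Huh7 it was 0 by FPKM and by depth-scaled coverage, where CIDEB dropped to 0.86 and 0.95, and 4 at 1.5-fold. In HepG2 it was 0 by FPKM, where CIDEC was at 0.88, and 0 with a minimum of 5 TPM, which leaves CIDEC out. It was 2 with a pseudocount of 0.1, which added G0S2 at −1.32, and 4 at 1.5-fold. The additive limma fit, added after seeing the data, has 1 siRNA term over both lines and called 0 members for it. It gives no count within a line and does not use the 2-fold threshold. The total count past 2-fold between the lines stayed within 1.5 times under the other pseudocount, units, scalings and minimum TPM tried. Of that total, the members lower in Huh7 than in HepG2 went from 6 to 3 with a minimum of 5 TPM and to 4 by FPKM and median-of-ratios scaling. The median change of the members with COP1-siRNA ran from −0.073 to 0.0027 in Huh7, so its sign depended on the unit. In HepG2 that median ran from 0.056 to 0.10. Members lower with COP1-siRNA in Huh7 went from 24 to 17 of 36 by FPKM, with 19 higher, so most were then no longer lower. Of 185 values of 14 named genes under 7 alternatives, 0 of the changes past 1.5-fold turned sign, 3 were no longer past 2-fold and 1 newly was. Most of these values belong to smaller changes, of which those of SREBF1, MLXIPL and PLIN2 in Huh7 did turn sign. The minimum-TPM settings only leave genes out and cannot alter a ratio, so their values are no check. Without read counts, small changes of genes near 1 TPM cannot be given an error, and with 1 library per group no library could be left out. No paired analysis by replicate number was possible because the groups hold 1 library each.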
